A study of Mus musculus with 6 samples.

Results

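The genes described here are 57 effectors that interferons induce, picked by name from the 53746 genes of the deposited count table. They fall into a pair of sets by symbol: 13 GTPases, whose symbols start with Gbp, Irgm, *Igtp*, Iigp or Tgtp, and an antiviral core made of the other 44 members. Their transcripts were measured by RNA-seq of whole cerebellum in 6 mice, 3 N153SLSL/LSL mice (control) and 3 N153SLSL/LSLPcp2-cre mice (Pcp2-cre), at an age of 2 months. All 6 mice carry on both *Sting1* copies the constitutively active N153S allele of STING behind a LoxP-Stop-LoxP cassette, so the controls carry the allele too. The Pcp2-cre mice also carry a transgene that drives Cre in Purkinje cells, which lifts the stop there and leaves the cassette in place elsewhere as far as Cre is confined to these neurons. In each genotype mice 1 and 2 were labelled male and mouse 3 female. Total counts were 8151391, 6809768 and 10178218 for the controls numbered 1 to 3, then 7565899, 8572674 and 6733178 for the Pcp2-cre animals in that order, which is kept for all values below. Detection was taken to start above 3 counts, or 0.295 to 0.446 CPM (counts scaled to library size), a limit that covers counting error alone. The comparison asks whether interferon effectors differ in cerebella whose Purkinje cells carry active STING, and whether the antiviral core and the GTPases do so alike.

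Interferons act through receptors on the cell surface that switch on JAK kinases and STAT transcription factors. Type I interferon leads to a complex of STAT and IRF proteins that binds the interferon-stimulated response element (ISRE), while interferon gamma leads to STAT dimers that bind the gamma-activated site (GAS). The antiviral core senses viral nucleic acid, degrades it or blocks virus entry, translation and release, whereas the guanylate-binding proteins (GBPs) and immunity-related GTPases (IRGs) attack the membranes around pathogens inside cells and are classically strong targets of interferon gamma. STING itself is an adaptor of DNA sensing that activates TBK1 and IRF3 and so induces type I interferon, and in brain microglia are a main source of this response.

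The labels were checked on the engineered gene. *Sting1* had 23.2, 27.3 and 26.2 CPM (with TMM library sizes) in controls against 44.4, 34.2 and 35.5 CPM in Pcp2-cre mice. Each Pcp2-cre mouse lay above each control. The controls had counts of *Sting1* with the cassette in place, and gene counts do not show which transcripts these are. Nor do they show which cells hold the RNA. In public single-cell data the paper found *Sting1* mRNA in microglia alone, with little or none in neurons, Purkinje cells among them. Microglia markers, given below, were higher in Pcp2-cre mice too. The part of each cell type in the *Sting1* values was not tested, so this check of the labels is limited. *Xist* reached 9203 and 6721 counts in females but no more than 3 in males, while *Ddx3y* had 0 counts in the females. The tissue held its defining markers: all 9 Purkinje cell and 7 granule cell markers had enough counts to be tested.

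Control mice 1 and 2 stood apart from the other 4 libraries by choroid plexus RNA. The 10 choroid plexus markers summed to 842, 1293 and 33.8 CPM in controls against 25.7, 32.4 and 90.4 CPM in Pcp2-cre mice. *Ttr*, the most abundant of them, had 5169 and 6896 counts in control mice 1 and 2 but 31 in control mouse 3, and 6 of the 7 markers tested were called lower. Values without both libraries are therefore given for the sets and for the members that moved most. Such values rest on control mouse 3, the female control, and so differ in the balance of sexes as well.

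Promoter sequence is shown first because it does not depend on the expression values. The members were picked as genes that interferons induce, and the ISRE and GAS are elements of that induction. A motif share above that of all genes therefore describes the list and is not a result of the comparison of genotypes. RefSeq windows of build GRCm38.p6, running from 250 bases before to 50 bases after a gene's start, were matched for 42 of the 57 members, 33 of the core and 9 GTPases. The core genes *Usp18*, *Oas2*, *Zbp1*, *Parp9*, *Parp14*, *Rtp4*, *Dhx58*, *Ifi27*, *Ifi204*, *Mx1* and *Mx2* and the GTPase genes *Gbp4*, *Gbp6*, *Gbp9* and *Iigp1* had no entry. Each window was searched on both strands for the letters GAAA, any 2 bases and GAAA, taken here for an ISRE, and for TTCNNNGAA, taken for a GAS, which reads alike on both strands. The ISRE letters were found in 15 of the 33 core genes (45.5%) and in all 9 GTPase genes, against 3.99% of the 27025 genes in the same table. GAS letters were found in 9 core genes (27.3%) and 6 GTPase genes (66.7%), against 9.55% of all genes. Both motifs occurred together in 4 of the 33 core genes and 6 of the 9 GTPase genes, against 0.61% of all genes. A match describes letters only, and says nothing of which factor binds there.

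The stretches below hold the motif letters of core genes from the ISG15, membrane and IFIT groups and of GTPase genes from both families. Capitals mark these letters on either strand, so that an ISRE match on the reverse strand reads TTTC, any 2 bases and TTTC. Each runs from 8 bases before the most upstream match to 8 bases after the most downstream match ahead of the start, 5′ to 3′ on the gene's own strand.
Isg15: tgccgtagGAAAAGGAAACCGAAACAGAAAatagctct
Bst2: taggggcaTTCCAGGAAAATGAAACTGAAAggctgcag
Ifit3: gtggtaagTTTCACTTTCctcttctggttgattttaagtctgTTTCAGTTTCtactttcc
Irgm1: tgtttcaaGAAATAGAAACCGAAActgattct
Gbp2: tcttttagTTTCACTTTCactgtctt
Irgm2: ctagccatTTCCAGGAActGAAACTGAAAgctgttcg
Igtp: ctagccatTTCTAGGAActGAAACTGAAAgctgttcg
Tgtp1: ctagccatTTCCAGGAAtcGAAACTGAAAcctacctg
Tgtp2: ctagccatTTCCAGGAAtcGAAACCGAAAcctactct

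Each window matched the GRCm39 genome at 1 place. The stretches lie ahead of the RefSeq start, but Gencode genes reach further upstream at *Irgm1*, *Gbp2*, *Irgm2*, *Igtp* and *Tgtp1*, so that their stretches fall within the annotated gene. The *Isg15* stretch is at chr4:156285324-156285361 on the reverse strand and holds 3 ISRE matches that overlap each other. The *Bst2* stretch, at chr8:71990223-71990260 on the reverse strand, has a GAS match running into the first of 2 ISRE matches. *Ifit3*, at chr19:34560765-34560824 on the forward strand, has 2 separate ISRE matches on the reverse strand of the gene. *Irgm1* at chr11:48762254-48762285 (reverse strand) has 2 overlapping ISRE matches, and *Gbp2* at chr3:142326357-142326382 (forward strand) has 1. In *Irgm2* (chr11:58105720-58105756, forward strand), *Igtp* (chr11:58090329-58090365, forward strand), *Tgtp1* (chr11:48883133-48883169, reverse strand) and *Tgtp2* (chr11:48955092-48955128, reverse strand) the GAS letters stand 2 bases before the ISRE letters. Of the 37 bases of these 4 stretches, 27 are the same in all of them, and *Irgm2* and *Igtp* share 36. In the member windows as a whole the motifs overlap in 2 genes, *Bst2* and *Ifitm3*. *Lgals3bp*, which gave the smallest p among the members, has neither motif in its window.

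Pcp2-cre cerebella had more RNA of a few antiviral core genes, and no GTPase gene passed the test. *Lgals3bp* and *Bst2* were called higher, out of 34 core members with enough counts to be tested, with the adjusted p no higher than 0.05 and a log2 fold change no lower than 0.5. Of all 16961 genes tested, 233 (1.37%) were called higher and 304 (1.79%) lower, and no member was called lower. None of the 12 GTPase members tested was called by edgeR with all mice and the planned filter, although 5 of them had an unadjusted p of at most 0.05. DESeq2 called 0 of these 12 and limma on FPKM 0 of 13, while edgeR called *Gbp9* with no filter on low counts and *Irgm1* with sex as a covariate. Of the core, DESeq2 and limma on filtered FPKM called *Lgals3bp* alone, and limma on FPKM without a filter called no member.

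Without a correction for the number of genes, the members leaned in 1 direction. An unadjusted p of at most 0.05 was reached by 14 of the 34 core members (41.2%) and 5 of the 12 GTPases (41.7%), each time with a higher level in Pcp2-cre cerebella. Among all genes tested the share was 8.36% for higher and 9.67% for lower levels. In 13 core members and 3 GTPases every Pcp2-cre mouse lay above every control mouse, which held for 10.8% of all genes tested. In no tested member did every Pcp2-cre mouse lie below every control, against 11.4% of all genes. The fitted log2 fold change was above 0 in 28 of the 34 core members and 9 of the 12 GTPases, against 51.3% of all genes. Its median was 0.34 over the tested core, 0.40 over the tested GTPases and 0.0045 over all genes. With no filter on low counts the medians were 0.39 over all 44 core members and 0.38 over all 13 GTPases, so the sets lay close to each other.

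The plot of fitted fold changes shows this spread in the tested members.

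**Figure D1:**
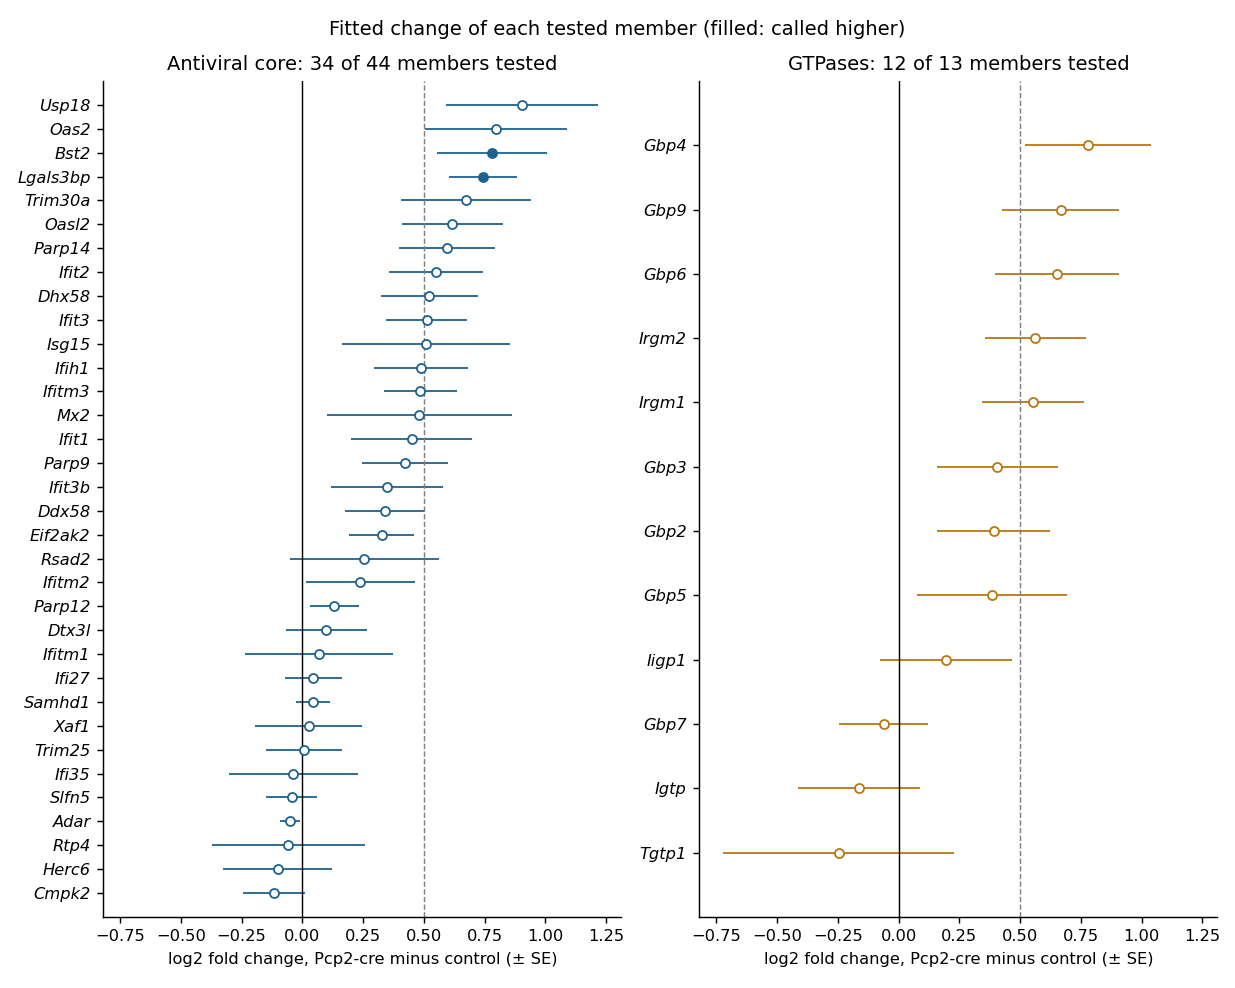
Fitted log2 fold change of each tested member (x axis, Pcp2-cre minus control, with its standard error), sorted within the antiviral core (left, 34 members) and the GTPases (right, 12 members). Filled points are the called genes *Bst2* and *Lgals3bp*, the dashed line marks the threshold of 0.5, and values run from -0.12 to 0.90 in the core and from -0.25 to 0.78 in the GTPases.

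The 11 members that failed the filter on low counts were *Isg20*, *Zbp1*, *Epsti1*, *Mx1*, *Oas1a*, *Oas3*, *Oasl1*, *Ifi44*, *Slfn2* and *Ifi204* in the core and *Tgtp2* among the GTPases. *Ifi204*, a DNA-binding sensor of the interferon-inducible p200 family, had 0, 2 and 1 counts in controls against 8, 10 and 5 counts in Pcp2-cre mice. Its groups did not overlap, and the ratio of pooled counts per library size was 8.27, with an exact 95% interval for counting error from 2.50 to 43.0. With no filter on low counts edgeR called *Ifi204*, as it did *Ifit3*. *Zbp1*, a sensor of Z-form nucleic acid, had 3, 1 and 1 counts in controls against 3, 5 and 3 in Pcp2-cre mice, a ratio of 2.37 with an interval from 0.76 to 8.71. *Mx1* had 3, 0 and 5 counts in controls against 7, 5 and 5 in Pcp2-cre mice, all of the latter above the former once scaled to library size. *Oas3* and *Oasl1* had at most 2 counts in any mouse, so no ratio is given for them. *Isg20*, *Epsti1*, *Ifi44* and *Slfn2* had at most 12 counts in any mouse, and their groups overlapped.

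The ISG15 system attaches and removes the ubiquitin-like modifier ISG15. *Isg15*, the modifier itself, had 0.873, 1.04 and 1.68 CPM in controls against 1.98, 2.08 and 1.18 CPM in Pcp2-cre mice. Its groups overlapped, since Pcp2-cre mouse 3 lay under control mouse 3, and its log2 fold change was 0.51 ± 0.346 (SE; edgeR quasi-likelihood test, Benjamini-Hochberg adjusted p = 0.501). Without control mouse 3 that value was 0.89 and without control mouse 1 it was 0.32. *Usp18*, the protease that removes ISG15 and damps receptor signaling, had 1.37, 1.64 and 0.991 CPM in controls against 1.71, 2.77 and 2.81 CPM in Pcp2-cre mice. Each Pcp2-cre mouse exceeded the controls, with Pcp2-cre mouse 1 only just so. The log2 fold change of *Usp18* was 0.90 ± 0.312 (SE), the highest fitted value of any tested member, and missed the threshold (edgeR quasi-likelihood test, Benjamini-Hochberg adjusted p = 0.0918). The ISG15 ligases *Herc6* and *Trim25* had log2 fold changes of -0.10 and 0.01 with overlapping groups.

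Among sensors of RNA the helicase genes *Ifih1* (MDA5) and *Ddx58* (RIG-I) and the kinase gene *Eif2ak2* (PKR) kept the Pcp2-cre mice above the controls in CPM, and *Ddx58* alone of them in FPKM too. *Ifih1* had 3.99, 3.28 and 4.36 CPM in controls against 5.27, 5.54 and 5.77 CPM in Pcp2-cre mice. Its log2 fold change was 0.49, that of *Ddx58* was 0.34 and that of *Eif2ak2* was 0.33. *Dhx58* (LGP2) and *Trim30a* had higher fitted values, 0.52 and 0.67, but their groups overlapped. *Adar*, the RNA-editing enzyme, was by far the most abundant member by length-scaled level, with 33.4, 35.5 and 34.1 FPKM in controls against 34.8, 35.6 and 31.2 FPKM in Pcp2-cre mice. Its groups overlapped and its log2 fold change was -0.05 ± 0.0412 (SE; edgeR quasi-likelihood test, Benjamini-Hochberg adjusted p = 0.595). *Adar* exons overlap those of *Chrnb2* on the opposite strand for 1365 bases, and whether strand was used in counting is not given in the sources used here.

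The OAS family makes the second messenger that activates RNase L. *Oas2* had 1.25, 1.34 and 1.49 CPM in controls against 1.84, 2.66 and 2.66 CPM in Pcp2-cre mice. *Oasl2*, an OAS-like gene, had 3.62, 3.87 and 4.26 CPM in controls against 4.48, 6.46 and 7.25 CPM in Pcp2-cre mice. In both genes the Pcp2-cre mice all exceeded the controls, and in both Pcp2-cre mouse 1 was the lowest of its group. Their log2 fold changes were 0.80 and 0.62, with Benjamini-Hochberg adjusted p of 0.118 and 0.0812 in the edgeR quasi-likelihood test. *Oasl2* was called with sex as a covariate (0.64) and without Pcp2-cre mouse 1 (0.79). *Oas1a* had 8, 5 and 11 counts in controls against 11, 7 and 13 counts in Pcp2-cre mice, with overlapping CPM, and was not tested.

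Enzymes of nucleotide and RNA metabolism did not separate the groups. *Samhd1*, which degrades deoxynucleotides, had 9.87, 9.24 and 9.43 FPKM in controls against 9.75, 9.29 and 10.3 FPKM in Pcp2-cre mice. Its groups overlapped and its log2 fold change of 0.04 ± 0.0709 (SE) turned to -0.01 without Pcp2-cre mouse 3. *Rsad2* (viperin), which makes a chain-terminating nucleotide, had 1.62, 1.64 and 1.19 CPM in controls against 1.98, 1.62 and 1.63 CPM in Pcp2-cre mice. The log2 fold change of *Rsad2* was 0.26 ± 0.306 (SE; edgeR quasi-likelihood test, Benjamini-Hochberg adjusted p = 0.757), and 0.09 without control mouse 3. *Cmpk2*, the nucleotide kinase gene beside *Rsad2* on chromosome 12, had a log2 fold change of -0.12 with overlapping groups.

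IFIT proteins bind viral RNA and block its translation. *Ifit3* had 8.86, 6.40 and 8.52 CPM in controls against 10, 14.3 and 9.62 CPM in Pcp2-cre mice. Pcp2-cre mouse 2 was the highest, the Pcp2-cre mice all exceeded the controls, and the log2 fold change was 0.51 ± 0.168 (SE; edgeR quasi-likelihood test, Benjamini-Hochberg adjusted p = 0.0707). Without Pcp2-cre mouse 2 it was 0.29. *Ifit2* also kept its groups apart, at 0.55, while *Ifit1* and *Ifit3b* had 0.45 and 0.35 with overlapping groups. *Ifit3b* shares 15.6% of its 150-base stretches with *Ifit3*, so reads may be split between them.

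Membrane proteins that restrict viruses included the second called gene. *Bst2* (tetherin), which holds budding virus at the cell surface, had 2.50, 2.53 and 2.87 CPM in controls against 3.69, 4.50 and 5.62 CPM in Pcp2-cre mice. Its means were 2.63 ± 0.209 and 4.60 ± 0.971 CPM (SD, n = 3 mice each), and the groups did not overlap. *Bst2* rose by a log2 fold change of 0.78 ± 0.226 (SE; edgeR quasi-likelihood test, Benjamini-Hochberg adjusted p = 0.0357). The call was lost without control mice 1 and 2, which held choroid plexus RNA, where the log2 fold change was 0.67 and the adjusted p by the same edgeR quasi-likelihood test was 0.296. It was lost too with DESeq2 (0.79, adjusted p = 0.23) and with a choroid plexus score as covariate (0.78, edgeR quasi-likelihood adjusted p = 0.173). Leaving out control mouse 1 or 2 or Pcp2-cre mouse 2 or 3 gave log2 fold changes of 0.74, 0.76, 0.80 and 0.63, with edgeR quasi-likelihood adjusted p of 0.132, 0.0993, 0.107 and 0.19, so the fold stayed at a like size where the call was lost. *Bst2* lies at chr8:71986895-71990114 of GRCm39 and no other annotated gene shares its exons.

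*Ifitm3*, which blocks virus entry in endosomes, came closest to the threshold without passing it. It had 7.49, 6.7 and 7.13 CPM in controls against 9.22, 9.47 and 11.4 CPM in Pcp2-cre mice. The groups did not overlap and the log2 fold change was 0.49 ± 0.149 (SE; edgeR quasi-likelihood test, Benjamini-Hochberg adjusted p = 0.0512). *Ifitm3* exons overlap those of a gene model on the opposite strand for 780 bases. *Ifitm2* had 2.74, 3.43 and 2.58 CPM in controls against 3.29, 3.46 and 3.40 CPM in Pcp2-cre mice, and its log2 fold change was 0.24 ± 0.224 (SE) with overlapping groups, and 0.15 without control mouse 3. *Ifitm1* had a log2 fold change of 0.07.

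Among the PARP genes, whose proteins attach ADP-ribose, and their partner *Dtx3l*, *Parp14* and *Parp9* kept their groups apart. *Parp14* had 3.24, 4.77 and 4.86 CPM in controls against 5.80, 7.27 and 6.36 CPM in Pcp2-cre mice, a log2 fold change of 0.59 ± 0.197 (SE; edgeR quasi-likelihood test, Benjamini-Hochberg adjusted p = 0.0741). Control mouse 1 was the lowest of its group, and without it the fitted value was 0.43. *Parp9* had a log2 fold change of 0.42. *Parp12* and *Dtx3l* had 0.13 and 0.10 with overlapping groups.

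In the rest of the core, *Lgals3bp* stood alone. This gene encodes a secreted glycoprotein that binds galectins and has antiviral activity. It had 11.2, 14.9 and 10.9 CPM in controls against 16.7, 19.9 and 24.9 CPM in Pcp2-cre mice. Its means were 12.3 ± 2.22 and 20.5 ± 4.10 CPM (SD, n = 3 mice each), and the Pcp2-cre mice all exceeded the controls. *Lgals3bp* rose by a log2 fold change of 0.74 ± 0.140 (SE; edgeR quasi-likelihood test, Benjamini-Hochberg adjusted p = 0.0011). The value was 0.90 without control mice 1 and 2, and dropping single mice gave values from 0.59 to 0.88. *Lgals3bp* lies at chr11:118280716-118292918 of GRCm39, and no other annotated gene shares its exons.

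The other tested genes of that group gave fitted values near 0 with all mice. *Ifi27*, a mitochondrial membrane protein gene, had 18.2, 20.6 and 13.8 FPKM in controls against 18.1, 18.5 and 18.6 FPKM in Pcp2-cre mice, the highest level after *Adar*. Its log2 fold change was 0.05 ± 0.118 (SE), and it depended on the controls: -0.12 without control mouse 3, the lowest of its group, 0.36 without control mice 1 and 2, and 0.33 with a choroid plexus score as covariate. *Slfn5*, *Rtp4*, *Ifi35* and *Xaf1* had log2 fold changes between -0.06 and 0.03, and their groups overlapped. In the separate Mx group, *Mx2* had 9, 4 and 14 counts in controls against 7, 17 and 11 in Pcp2-cre mice, a log2 fold change of 0.48 with overlapping groups.

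**Figure D2:**
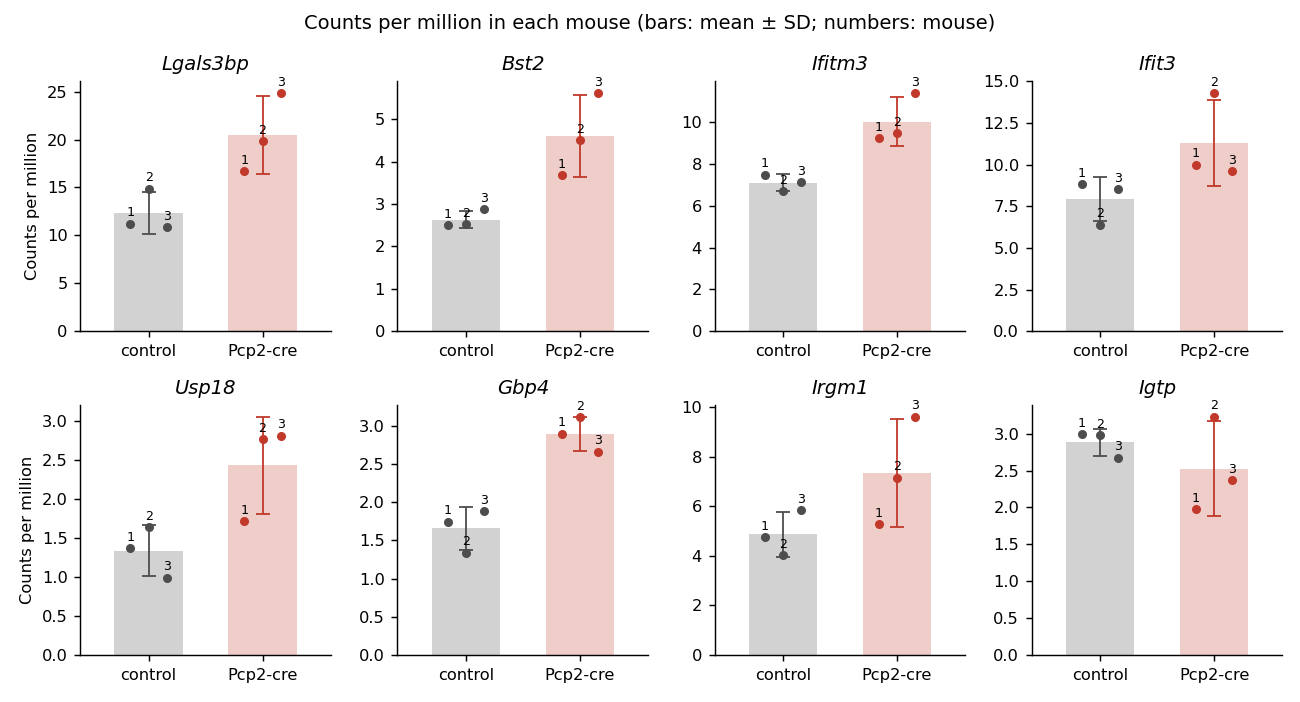
CPM (y axis) of 8 members in each mouse, with the mean and SD of the 3 mice of each genotype as bars and the mouse number beside each point. *Lgals3bp*, *Bst2*, *Ifitm3*, *Ifit3*, *Usp18* and *Gbp4* have every Pcp2-cre mouse above every control, while *Irgm1* and *Igtp* overlap.

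The guanylate-binding proteins had a higher median of fitted values than the immunity-related GTPases. *Gbp4*, on chromosome 5, had 1.75, 1.34 and 1.88 CPM in controls against 2.90, 3.12 and 2.66 CPM in Pcp2-cre mice. The groups did not overlap and the log2 fold change was 0.78 ± 0.260 (SE; edgeR quasi-likelihood test, Benjamini-Hochberg adjusted p = 0.0777), the smallest p of any GTPase. *Gbp6* had 2.74, 2.98 and 1.68 CPM in controls against 3.16, 4.50 and 3.55 CPM in Pcp2-cre mice, without overlap. Its log2 fold change was 0.65 ± 0.255 (SE; edgeR quasi-likelihood test, Benjamini-Hochberg adjusted p = 0.153), and 47.8% of its 150-base stretches occur in other genes too, mostly in the neighbouring model *Gm43302*, so its counts are uncertain. Without control mouse 3 the fitted value of *Gbp6* was 0.40, and without control mice 1 and 2 it was 1.16. *Gbp9* had 2.74, 3.57 and 5.15 CPM in controls against 4.61, 8.08 and 5.77 CPM in Pcp2-cre mice. Its groups overlapped because control mouse 3 was high, and its log2 fold change of 0.67 ± 0.242 (SE) was 0.99 without that mouse and 0.40 without Pcp2-cre mouse 2.

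Summed over the 3 genes on chromosome 5, between positions 105224332 and 105443751, levels were 7.23, 7.89 and 8.72 CPM in controls against 10.7, 15.7 and 12 CPM in Pcp2-cre mice, without overlap. Summed over the 4 genes on chromosome 3, between positions 142199739 and 142343779, they were 13.2, 12.2 and 16.1 CPM in controls against 12.6, 19.3 and 18.1 CPM in Pcp2-cre mice, with overlap. This grouping by chromosome was made after the values had been seen, and the difference between the clusters was not tested. It did not hold in every setting: on log2(FPKM + 0.1) *Gbp9* had 0.18 against 0.60 for *Gbp3*, and without control mouse 3 *Gbp6* had 0.40 against 0.58 for *Gbp3*. *Gbp2*, *Gbp3* and *Gbp5* on chromosome 3 had log2 fold changes of 0.39, 0.41 and 0.38, and *Gbp7* had -0.06, which was 0.13 on log2(FPKM + 1). *Gbp3* was the most abundant gene of the family by FPKM, with 1, 0.974 and 1.20 FPKM in controls against 1.27, 2.24 and 1.56 FPKM in Pcp2-cre mice, and its fitted value from counts was 0.10 without Pcp2-cre mouse 2.

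The immunity-related GTPases divide into regulators, which protect the cell's own membranes, and effectors, which coat pathogen vacuoles. Among the regulators *Irgm1* had 4.74, 4.02 and 5.85 CPM in controls against 5.27, 7.16 and 9.62 CPM in Pcp2-cre mice. Pcp2-cre mouse 1 lay under control mouse 3, so the groups overlapped, and the log2 fold change was 0.55 ± 0.211 (SE; edgeR quasi-likelihood test, Benjamini-Hochberg adjusted p = 0.139). *Irgm2* had 3.62, 3.72 and 3.77 CPM in controls against 4.22, 5.77 and 6.51 CPM in Pcp2-cre mice, without overlap, at a log2 fold change of 0.56 ± 0.207 (SE). Without Pcp2-cre mouse 1 both genes were called, at 0.74 for *Irgm1* and 0.72 for *Irgm2*. Without Pcp2-cre mouse 3 they had 0.33 and 0.44 and were not called.

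The third regulator, *Igtp* (Irgm3), had a fitted value under 0 in the counts. It had 2.99, 2.98 and 2.68 CPM in controls against 1.98, 3.23 and 2.37 CPM in Pcp2-cre mice, with overlap, at a log2 fold change of -0.16 ± 0.250 (SE). Leaving out Pcp2-cre mouse 2 gave -0.41 and leaving out Pcp2-cre mouse 1 gave -0.02. In FPKM, which is not the counts over a fixed length here, *Igtp* had 0.982, 1.26 and 1.14 in controls against 1.10, 1.47 and 1.32 in Pcp2-cre mice. These groups overlapped too, and the direction of the fitted value turned. *Igtp* and *Irgm2* are the neighbours whose printed stretches share 36 of 37 bases, and their annotated exons overlap for 162 bases on the same strand. Among the effectors *Iigp1* had a log2 fold change of 0.20 with overlapping groups. *Tgtp1* had 13, 9 and 6 counts in controls against 7, 13 and 2 in Pcp2-cre mice, and *Tgtp2* had 10, 12 and 8 and then 9, 17 and 5. The groups of both overlapped. *Tgtp1* and *Tgtp2* share more than 60 percent of their 150-base stretches (61.2% of those of *Tgtp1* and 68.4% of those of *Tgtp2*), so the split of reads between them is uncertain.

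The core and the GTPases were set against each other mouse by mouse. The median over tested core members of log2 CPM minus the control mean was 0.03, -0.01 and 0.03 in controls against 0.18, 0.38 and 0.32 in Pcp2-cre mice. The same median over tested GTPases was -0.02, -0.05 and 0.12 in controls against 0.09, 0.58 and 0.53 in Pcp2-cre mice. For the core the Pcp2-cre mice all exceeded the controls, and for the GTPases Pcp2-cre mouse 1 lay under control mouse 3. The GTPase median minus the core median was -0.04, -0.04 and 0.09 in controls against -0.09, 0.20 and 0.21 in Pcp2-cre mice. These differences overlap between the genotypes, with the lowest and the highest values both in Pcp2-cre mice. By the mean in place of the median, Pcp2-cre mouse 3 had 0.36 for the core and 0.29 for the GTPases, so its order turned.

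In the sums, too, Pcp2-cre mouse 1 was the lowest of its group. Over all 44 core members there were 442, 451 and 444 CPM in controls against 455, 495 and 498 CPM in Pcp2-cre mice, of which *Adar* alone made up 211, 220 and 219 and then 206, 210 and 212 CPM. Over the 43 core members without *Adar* there were 230.2, 230.3 and 225 CPM in controls against 249, 285 and 286 CPM in Pcp2-cre mice. Over the 13 GTPases there were 36.4, 35.9 and 40.4 CPM in controls against 39.3, 56.9 and 51.3 CPM in Pcp2-cre mice. Both core sums kept the genotypes apart, and the GTPase sum did not. Without Pcp2-cre mouse 1 the GTPase median log2 fold change was 0.62 in place of 0.40, and 2 GTPases were called. Without control mouse 3 it was 0.58 and 1 GTPase, *Gbp9*, was called. Without control mice 1 and 2 the medians were 0.35 for the core and 0.27 for the GTPases, with 1 core member and 0 GTPases called. Of the members given with full values, *Isg15*, *Gbp9*, *Irgm1* and *Gbp3* then had 0.08, 0.27, 0.31 and 0.17 in place of 0.51, 0.67, 0.55 and 0.41. *Ifit2* went from 0.55 to 0.35, *Parp14* from 0.59 to 0.42 and *Gbp4* from 0.78 to 0.62. Values went up for *Gbp6* (0.65 to 1.16), *Usp18* (0.90 to 1.28), *Rsad2* (0.26 to 0.54), *Ifi27* (0.05 to 0.36) and *Ifitm2* (0.24 to 0.39), and none of these was called.

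**Figure D3:**
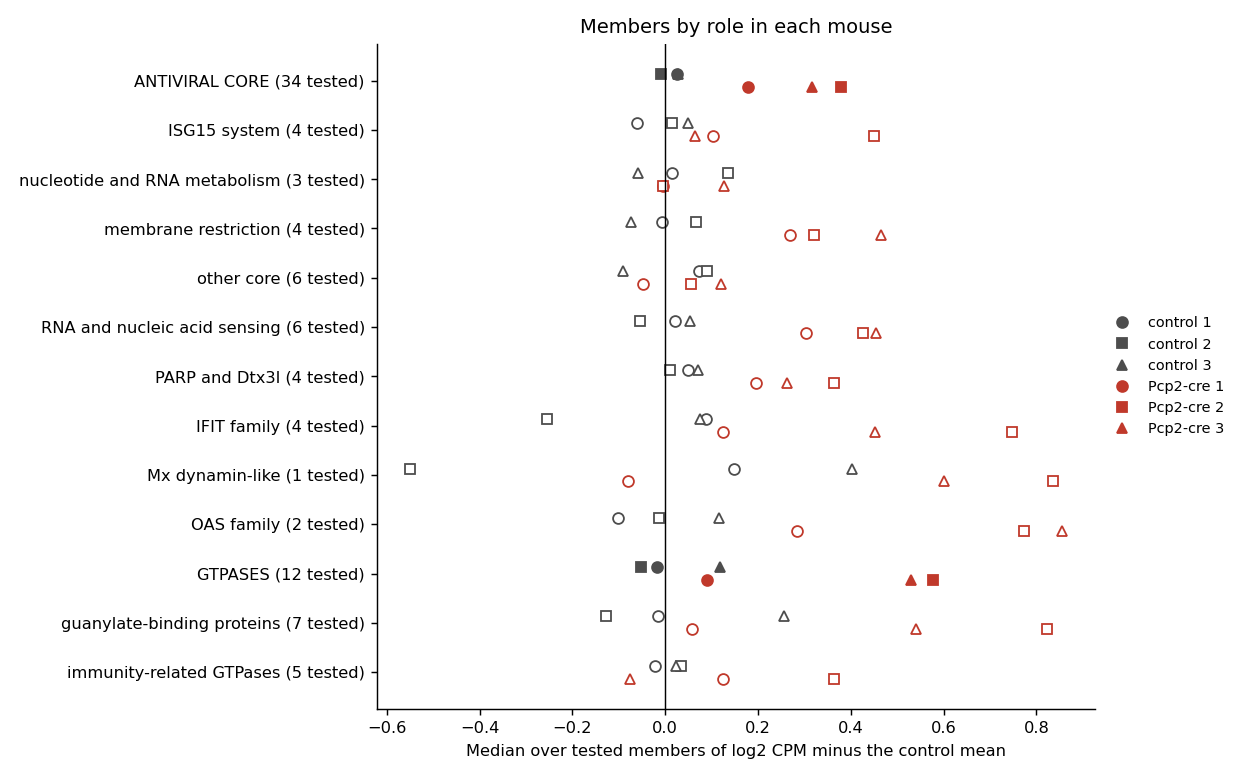
Median over the tested members of each role of log2 CPM minus the control mean (x axis) in each of the 6 mice, with both whole sets as filled points. Pcp2-cre mice lie above all controls for the core, the ISG15 system, the membrane proteins, the nucleic acid sensors, the PARP group, the IFIT family and the OAS family, and overlap with them for the GTPases, both GTPase families and the other roles.

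By role, the median log2 fold change ran from -0.01 over the 6 tested genes of the remaining core to 0.71 over the 2 tested OAS genes. It was 0.41 over 7 guanylate-binding proteins and 0.20 over 5 tested immunity-related GTPases. The OAS, IFIT and sensor groups, at 0.71, 0.48 and 0.42, reached values as high as those of the GTPase families or higher. No test was run between roles.

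In length-scaled level the GTPases were the scarcer set. Mean control FPKM ran from 0.344 (*Gbp4*) to 1.98 (*Irgm1*) over the GTPases, with a median of 0.741, and from 0.00783 (*Oas3*) to 34.3 (*Adar*) over the core, with a median of 1.07. The most abundant core genes *Adar*, *Ifi27* and *Samhd1* had fitted values between -0.05 and 0.05, and the abundant GTPases *Irgm1*, *Igtp* and *Gbp3* had 0.55, -0.16 and 0.41. In FPKM every Pcp2-cre mouse lay above every control for 7 of the 13 GTPases and 18 of the 44 core members, and below for none. Over 32862 genes without a filter on FPKM those shares were 8.27% and 5.82%. With the filter 17 of 41 core members and 7 of 13 GTPases lay above, and none below. Of the 21347 genes that passed it, 11% lay above and 7.78% below. *Usp18*, *Oasl2*, *Ifih1*, *Eif2ak2* and *Parp9* kept the groups apart in CPM but not in FPKM. Apart in FPKM but not in CPM were *Xaf1*, *Herc6*, *Trim30a*, *Parp12*, *Dtx3l*, *Mx2* and *Oas1a* of the core and *Gbp2*, *Gbp3*, *Gbp7* and *Irgm1* of the GTPases, so these counts depend on how reads were turned into values.

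**Figure D4:**
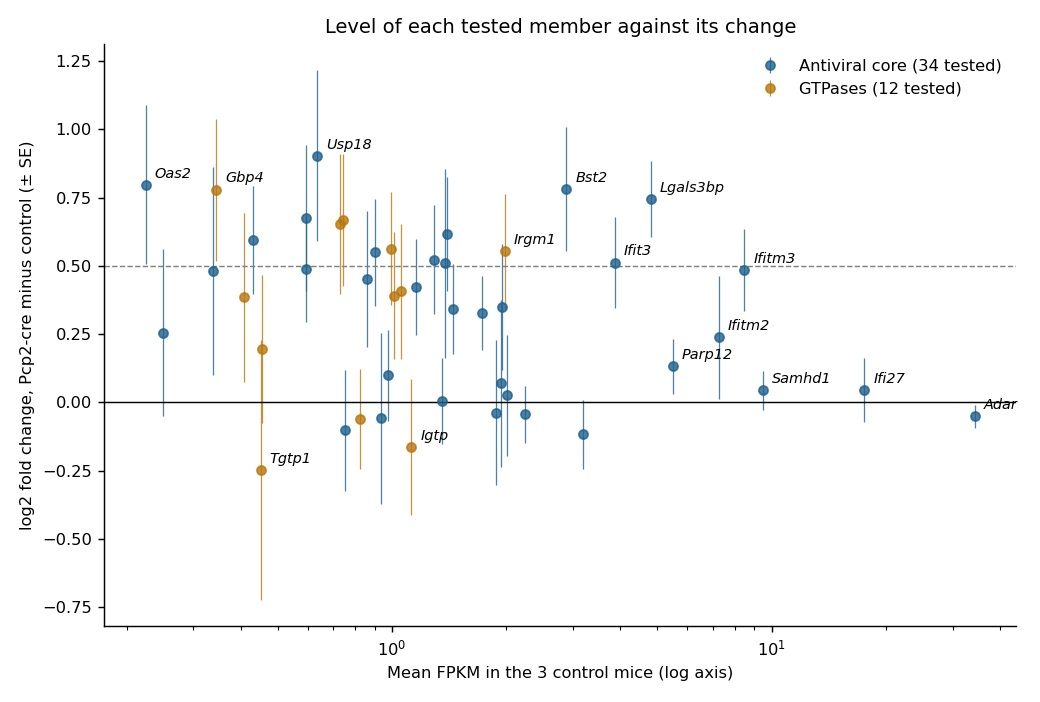
Fitted log2 fold change (y axis, Pcp2-cre minus control, with its standard error) of the 46 tested members against their mean FPKM in control mice (x axis, log scale). The members with the highest levels, *Adar*, *Ifi27* and *Samhd1*, lie near 0, and *Ifitm3*, *Lgals3bp*, *Bst2* and *Ifit3* lie near or above the dashed line at 0.5 at levels between 2.88 and 8.47 FPKM.

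Upstream of the members, interferon genes were at or near 0. Of 22 interferon ligand genes, *Ifnb1*, *Ifng* and 18 others had 0 counts in every mouse, while *Ifnab* and *Ifnz* never exceeded 1 count. A count of 0 allows up to 3 counts, so a low transcript level was not detectable at this depth. None of the 5 tested of 6 receptor genes was called, and *Ifnar1*, the most abundant of them in FPKM, had a log2 fold change of 0.05. Among the 13 JAK, STAT and IRF genes, all tested, *Irf8* alone was called, with 1.5, 2.38 and 1.09 CPM in controls against 7.90, 4.39 and 7.10 CPM in Pcp2-cre mice, a log2 fold change of 2.00 without overlap. *Irf3*, the most abundant of that list by FPKM, as for all lists here, and *Irf7* had log2 fold changes of 0.02 and 0.48.

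Among 8 upstream sensing genes *Sting1* and *Tlr7* rose, with log2 fold changes of 0.57 and 1.67, out of 6 tested, and *Tbk1*, the most abundant, had 0.02. *Tlr7* had 9, 6 and 16 counts in controls against 26, 38 and 28 in Pcp2-cre mice. Of 8 class I presentation genes, all tested, 3 rose: *B2m* by 0.66, *H2-K1* by 0.53 and *Psmb8* by 1.91, while *H2-D1* had a log2 fold change of -0.31. *Psmb8* had 7, 3 and 11 counts in controls against 22, 28 and 24 in Pcp2-cre mice, so its fold rests on low control counts. No gene of the 5 on the class II list was called, and *Cd74*, the most abundant, had 0.61. Of 2 feedback genes *Socs3* alone was tested, at 0.42. Among relatives of the members left off the member list, none of 5 GTPase relatives passed the filter, with *Ifi47* the most abundant. Of 14 core relatives 3 were tested and *Slfn8* rose by 1.63, while *Ifi203*, the most abundant, had 0.14. *Slfn8* had 6, 1 and 6 counts in controls against 16, 13 and 9 in Pcp2-cre mice, so its fold rests on controls near the floor. The other tested relative, *Trim30d*, had 0.99 without overlap and was not called. With no filter on low counts edgeR also called *Trim30d* (0.98) and *Ifi207* (1.87). *Ifi207* had 4, 5 and 1 counts in controls against 11, 8 and 16 in Pcp2-cre mice.

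Markers of cell types moved with the genotype beside the members. The 10 homeostatic microglia markers summed to 114, 108 and 112 CPM in controls against 255, 253 and 273 CPM in Pcp2-cre mice, with 7 of 10 called higher. The 12 activated microglia markers summed to 1071, 1151 and 1070 CPM in controls against 1582, 1551 and 1685 CPM in Pcp2-cre mice, with 10 of 12 called higher. *Apoe*, the most abundant of that list with a mean of 552 CPM in controls, is also made by astrocytes, so the sum says little of the scarcer genes. The median log2 fold change was 2.60 over the activated list and 1.14 over the homeostatic list. On the activated list the lowest mean control FPKM was 0 and the highest log2 fold change was 6.89. A gene that low in controls passes the filter on low counts only through the Pcp2-cre mice, and its fold rests on controls near the floor. The calls and the median of that list carry this limit. Both sums kept the genotypes apart, and Pcp2-cre mouse 1, which was low for the GTPases, was not low for either. The defining homeostatic markers *P2ry12* and *Tmem119* had log2 fold changes of 0.28 and 0.06 and were not called. Their groups overlapped in CPM, but in FPKM every Pcp2-cre mouse lay above every control for both genes.

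The 9 Purkinje cell markers summed to 8749, 8604 and 8076 CPM in controls against 5181, 4734 and 5029 CPM in Pcp2-cre mice, with 6 of 9 called lower and *Pcp2* the most abundant by FPKM. In bulk tissue fewer cells of a type and less RNA per cell cannot be told apart. The 9 astrocyte markers summed to 3255, 3320 and 3231 CPM in controls against 3490, 3568 and 3531 CPM in Pcp2-cre mice, with *Gfap*, *Aqp4* and *Serpina3n* called higher. *Aldoc*, the most abundant of them by FPKM, and *Slc1a3* were lower in each Pcp2-cre mouse than in any control, with log2 fold changes of -0.35 and -0.22 that stayed under the threshold in size, while 6 of the 9 were higher without overlap. The 6 oligodendrocyte markers (*Mbp* the most abundant) summed to 3572, 3548 and 3763 CPM in controls against 4366, 4154 and 4331 CPM in Pcp2-cre mice. All 6 had an unadjusted p of at most 0.05 and 5 lay higher without overlap, at log2 fold changes from 0.11 to 0.30, all under the threshold in size. No marker of the endothelial (*Ly6c1*) or granule cell (*Cbln3*) lists was called. The 13 T and NK cell markers summed to at most 2.54 CPM in any mouse, with *Cd3g*, *Nkg7* and *Gzmb* at 0 counts and *Trac* the most abundant. The 8 monocyte, neutrophil and border macrophage markers summed to 11.1, 8.34 and 11.5 CPM in controls against 13.4, 15.7 and 12 CPM in Pcp2-cre mice, with *Ly6g* at 0. None of the 3 tested was called. *S100a9*, the most abundant, failed the filter on low counts, and without that filter its log2 fold change was 1.45 (edgeR quasi-likelihood test, Benjamini-Hochberg adjusted p = 0.0216) with overlapping groups. The part of these cell types in the values of the members was not tested.

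**Figure D5:**
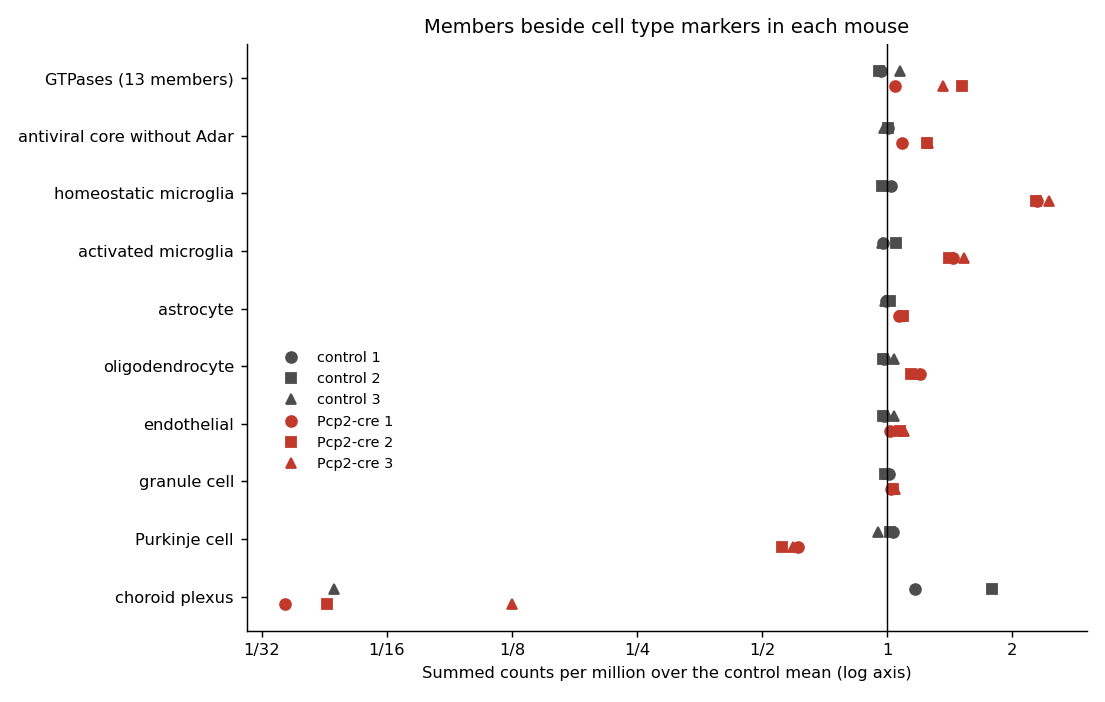
Summed CPM of the GTPases, of the core without *Adar* and of cell type marker lists in each mouse, divided by the control mean (x axis, log scale). Microglia lists lie high and Purkinje cell markers low in all 3 Pcp2-cre mice, choroid plexus markers are high in control mice 1 and 2, and the GTPases of Pcp2-cre mouse 1 lie among the controls.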

How the data were processed

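The authors aligned trimmed paired reads of poly A-enriched cerebellar libraries by STAR to GRCm39, and featureCounts and StringTie assigned them to Gencode genes, per the paper's methods and the submitters' processing notes. The count values used here, for 53746 genes, were deposited by the authors. The FPKM values, for 55005 genes, are a second table deposited by the authors. Tool versions, the Gencode release, the use of strand, the treatment of reads mapping to several genes and the tool behind the FPKM are not given in the sources used here. FPKM was not counts over 1 fixed length: for 41 members with at least 10 counts in every library, FPKM divided by CPM varied across libraries by a median factor of 1.47.

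The main test used edgeR 4.0.16 under R 4.3.3 (quasi-likelihood F test, TMM, filterByExpr), 3 mice against 3, with Benjamini-Hochberg adjustment over 16961 genes. Thresholds were an adjusted p of 0.05 and a log2 fold change of 0.5. Alternatives used DESeq2 1.42.0 and limma 3.58.1 on log2 of FPKM plus 1 or 0.1, kept at 0.1 FPKM or more in at least 3 mice. Others changed the scaling, the filter on low counts, the covariates (sex, choroid plexus score, replicate block) or the fold threshold, or left out mice. Standard errors are the log2 fold change over the square root of F. The fit was tested on simulated data. Positions, exon overlaps and shared 150-base stretches came from Gencode M39, and promoters from RefSeq. Between replicates of a genotype chi-square per gene was 1.35 to 3.39, above the value near 1 that sampling alone gives. Pairs across genotypes were not compared in this way.

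Any member could be named. Full values were given for members called, the 5 smallest p and 3 highest FPKM in each set, *Isg15*, *Usp18*, *Rsad2*, *Oas1a*, *Ifi27*, *Adar* and *Ifitm2*, and *Sting1*. Values per mouse were also given for some further members, such as *Ifih1*, *Oas2* and *Oasl2*. Of other lists, called genes and the most abundant gene were named, few of them with values per mouse. Called marker genes are given as counts. *Irf7*, *H2-D1*, *P2ry12*, *Tmem119* and *Slc1a3* were added after their values were seen. Members and lists were chosen with earlier results of these data known.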

Additional observations from a re-analysis of the deposited data

How the results depend on the processing

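Both medians stayed above 0 under all 17 alternatives that give one, between 0.16 and 0.42 for the core and between 0.14 and 0.62 for the GTPases. The cause of the shifts below was not tested. On log2(FPKM + 1), which shrinks low values, the medians were 0.17 for the core and 0.14 for the GTPases, and 0.16 and 0.14 without a filter. Core members called were 4 without a filter on low counts (*Ifi204* and *Ifit3* beside *Bst2* and *Lgals3bp*) and 1 with DESeq2, with the choroid plexus score as a covariate, with FPKM plus 1 and with FPKM plus 0.1, and 0 with FPKM plus 1 without a filter. With sex as a covariate 3 core members were called, with *Oasl2* added. GTPase members called were 1 without a filter on low counts (*Gbp9*) and 1 with sex as a covariate (*Irgm1*). GTPases higher without overlap were 7 in each FPKM setting.

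Over all genes, 150 were called higher with DESeq2 and 105 higher and 116 lower with FPKM plus 1 without a filter, 185 were lower with FPKM plus 1, and 507 were higher and 805 lower at any fold change. Leaving out each mouse in turn gave 1 to 4 core members and 0 to 2 GTPases called, core medians from 0.29 to 0.42 and GTPase medians from 0.32 to 0.62. *Oasl2*, *Irgm1* and *Irgm2* were called without Pcp2-cre mouse 1, *Parp14*, *Trim30a* and *Gbp9* without control mouse 3, and *Dhx58* without control mouse 2. Members higher without overlap then numbered 13 to 20 in the core and 3 to 8 among the GTPases, against 14.9% to 16.7% of all genes tested. Lower without overlap were 0 or 1 core members and 0 to 2 GTPases, against 15.7% to 16.9% of all genes. The 2 lower GTPases, of 11 tested, were seen without Pcp2-cre mouse 2. Both control libraries that held choroid plexus RNA were also left out, an alternative chosen after the data were seen. That left a single control mouse, the female one, whose spread was assumed to be like that of the other group. Both male controls were thereby left out, so choroid plexus RNA and sex cannot be told apart in this alternative. In the core 20 of 37 members then lay higher without overlap and 2 lower. Among the GTPases 3 of 13 (23.1%) lay higher and 1 lower. The shares over all genes were 28.0% higher and 27.5% lower, so the GTPase share was not above that of all genes.

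Of 388 values for 23 single members, 360 kept their sign and their side of the threshold, 11 lost a call, 9 gained one and 8 changed sign. *Lgals3bp* passed in 16 of 17 alternatives, failing on FPKM plus 1 without a filter (adjusted p = 0.121, limma), and *Bst2* in 7 of 17. *Igtp* turned to 0.11, 0.19 and 0.11, and *Gbp7* to 0.13, 0.25 and 0.13, on FPKM plus 1, plus 0.1 and plus 1 without a filter. *Ifi27* turned to -0.12 without control mouse 3 and *Samhd1* to -0.009 without Pcp2-cre mouse 3, where leaving out single mice otherwise gave up to 0.072. An interaction of genotype with sex, added after the data were seen and resting on 1 female per genotype, passed for 0 of 46 members in edgeR's quasi-likelihood test, and 3 had an unadjusted p of at most 0.05.

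With the replicate number as a replicate block, 229 genes were called higher and 319 lower, 2 core members and 0 GTPases were called, the medians were 0.35 and 0.41, and 13 and 3 members lay higher without overlap. Same-numbered mice correlated at 0.041, 0.056 and 0.166 in their deviations from the group mean, and not every mouse correlated best with its own number, so the numbers were not taken to pair the mice. At a median of 28.8 counts per library for core members and 24.3 for GTPases, values of single members carry a large counting error.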

Other observations

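The count and FPKM tables differed most for *Gbp6* among the 41 members with at least 10 counts in every library. Control mice 1, 2 and 3 had 22, 20 and 17 counts of *Gbp6* but 0.383, 0.983 and 0.823 FPKM, and FPKM divided by CPM differed by a factor of 3.50 between libraries. The factor was above 2 for *Rtp4*, *Gbp5* and *Usp18* as well. *Isg20* had 0 counts and 0.23 FPKM in Pcp2-cre mouse 2, and *Epsti1* had 0 counts and 0.075 FPKM in control mouse 1.

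Of the members whose promoter windows hold the GAS letters 2 bases before the ISRE letters, *Irgm2* had a log2 fold change of 0.56, *Igtp* -0.16 and *Tgtp1* -0.25, while *Tgtp2* was not tested. *Isg15*, with 3 ISRE matches, had 0.51 with overlapping groups.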
